A study of Mus musculus with 12 samples.

Results

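The genes described here serve the endoplasmic reticulum (ER) as chaperones, folding enzymes and import factors, with the sensors and transcription factors that control them. A list of 48 symbols was used, and a gene was kept when it had at least 10 counts of its own over the 12 libraries. Of the 48, 16 were read in this way, out of 5906 genes read in all. These were the sensor Atf6, the chaperone Hyou1, the folding factors Sil1 and Uggt1, the J-domain protein Dnajb11 and the disulfide isomerases Pdia4 and Pdia6. The import genes Srp54a, Srpr, Sec61b, Sec62, Sec63 and Ssr1, the oligosaccharyltransferase subunits Rpn2 and Stt3b, and the coat protein Sec24d were read as well. Of the others, 17 were covered only by entries that overlay several genes, 13 had no entry over their exons, Creld2 had too few bases and Crelds1 was not in the annotation. Hspa5, Xbp1 and Ern1, the best known genes of the list, were therefore not measured on their own.

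Secreted and membrane proteins enter the ER through the SEC61 channel, guided by the signal recognition particle and its receptor, and are folded there by chaperones, disulfide isomerases and the glycosylation machinery. When unfolded proteins build up, the sensors PERK, IRE1 and ATF6 start the unfolded protein response: PERK slows translation, while ATF6 and the IRE1 product XBP1 switch on many of the genes listed here. Activated T cells enlarge their ER as they begin to secrete cytokines.

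Bulk RNA-Seq was performed on T cells from spleen of WT and PERK-cKO mice (PERK-KO in the labels) on a B6 background. In PERK-cKO mice CD4-Cre deletes floxed Eif2ak3, the gene of PERK, in T cells of both the CD4+ and the CD8+ lineage. Allogeneic stimulation lasted 4 days and used antigen-presenting cells (APCs) of another strain, and polyclonal stimulation lasted 3 days and used antibodies to CD3 and CD28. There were 3 libraries in each of the 4 groups. With these times, which are those of the deposited description, time and stimulus cannot be told apart. A figure legend of the study instead gives the same duration for both. The labels do not say whether the libraries of a group came from separate mice, and p-values then measure only the spread between these libraries.

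The libraries held 3132702 to 4631908 counts each. Of these 50.4% could be placed on a single gene, which left 1568431 to 2327503 placed counts a library. The deposited table was counted at positions of another build than the one the labels name, so most member entries carry the symbol of another gene: of the 24 entries of the 16 members, 2 were listed under the member's own symbol. Pdia4, for example, was read from the entry listed as Zfp786, Pdia6 from Gm10054 and Rpn2 from Src. All member values therefore rest on this placement, and on the labels being right about the build. Entries over no exon of the labelled build, 63.8% of all entries, held 1.85% of the counts. WT polyclonal replicate 1 stood apart from the other 2 libraries of its group, with a chi-square per degree of freedom of 54.4 and 61.4, against 3.88 to 16.1 for all other pairs of replicates. Calls of the polyclonal comparison that members, or entries over several listed genes, lost without it are named below. Eif2ak3 had 167 to 173 counts in WT and 121 to 155 in PERK-cKO libraries after allogeneic stimulation (log2 fold change −0.49, adjusted p = 0.00759), and 85 to 152 against 76 to 116 after polyclonal stimulation (−0.36, adjusted p = 0.171). The polyclonal value of Eif2ak3 was −0.15 (adjusted p = 0.619) without WT polyclonal replicate 1 and −0.55 (adjusted p = 0.0226) without WT polyclonal replicate 3. The sources used here do not say which exons are deleted, so the part of Eif2ak3 that was read may lie outside them. Coding bases of exons 2, 5, 12 and 13 of 17 were read, from 2 entries. In a fit over all entries, the one listed as Eif2ak3 was at −0.29 (adjusted p = 0.311) after allogeneic stimulation. That listed as Tex37 was at −0.60 (adjusted p = 0.00797). They have 326 of 6026 and 237 of 814 bases on Eif2ak3 exons. Markers of T cells were present in all libraries, with 8 of 19 read and a summed level of 6973 to 7055 placed counts scaled to a library of fixed size (CPM) in WT and 6019 to 6614 in PERK-cKO libraries after allogeneic stimulation. After polyclonal stimulation they summed to 4788 to 4927 in WT and 6012 to 6340 in PERK-cKO libraries. Genes of other cells differed far more after allogeneic stimulation: 5 of 16 macrophage and monocyte markers summed to 244 to 280 CPM in WT and 1748 to 1966 in PERK-cKO libraries, and 5 of 8 basophil and mast cell markers to 124 to 137 against 2727 to 2886. B cell markers (1 of 12 read, Ms4a1) were at 51.4 to 68.6 against 140 to 165 CPM, and neutrophil markers (2 of 6) at 3.14 to 4.11 against 159 to 163. The leading genes of these lists were Ctss and Lyz2 for macrophages, with Lyz2 at 77 to 108 counts in WT and 1643 to 2106 in PERK-cKO libraries, and Prss34 and Fcer1a for basophils and mast cells, with Prss34 at 154 to 170 against 3341 to 5251. Dendritic cell markers (3 of 8, among them Itgax and Zbtb46) were at 1.76 to 7.92 CPM in WT and 45.4 to 61.4 in PERK-cKO libraries, with Itgax at 0 to 6 against 81 to 95 counts. NK cell markers (2 of 6) were at 0.528 to 1.76 against 2.43 to 8.57 CPM, and erythroid markers reached at most 4.02 CPM in any library. After polyclonal stimulation, macrophage markers were at 113 to 125 CPM in WT, with Lyz2 and C1qc at 0, and at 107 to 145 in PERK-cKO libraries, and basophil and mast cell markers at 1.04 to 2.49, with Cd200r3 at 0, against 16.7 to 24.4. NK cell markers were then at 0 to 1.99 CPM in WT, with Ncr1 at 0, and at 9.74 to 11.3 in PERK-cKO libraries, and dendritic cell markers at 7.88 to 9.95 against 5.64 to 7.15, with Flt3 at 0 in PERK-cKO libraries. The plasma cell marker Tnfrsf17, the only 1 of 10 with an entry of its own, had 0 to 2 counts in PERK-cKO libraries after allogeneic stimulation and 0 in all others. Y-linked genes (4 of 4) were read only in WT libraries after allogeneic stimulation, at 2092 to 2489 CPM, and were at 0 elsewhere, so sex cannot be told apart from genotype after allogeneic stimulation, from stimulus within WT, or from the interaction of both.

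**Figure D1:**
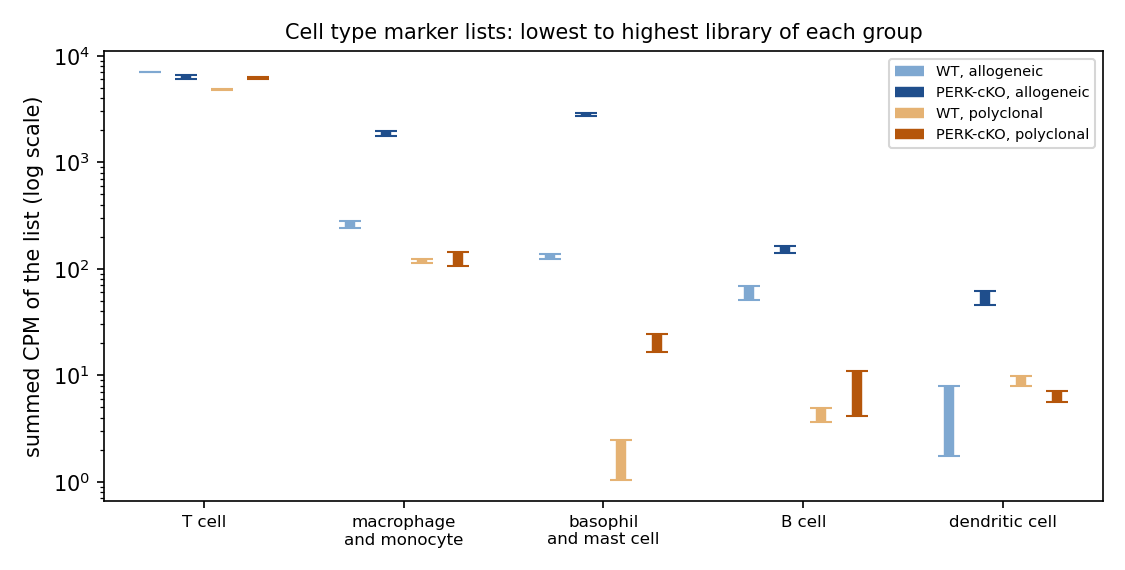
Summed CPM of the cell type marker lists on a log axis, with a bar from the lowest to the highest of the 3 libraries of each group. Macrophage and basophil markers stand at 1748 to 1966 and 2727 to 2886 CPM in PERK-cKO libraries after allogeneic stimulation, above all other groups.

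To determine how ER genes differed with PERK after allogeneic stimulation, PERK-cKO libraries were compared with WT libraries. Of 14 members tested, 4 rose and 0 fell at an adjusted p under 0.05, namely Atf6, Pdia4, Pdia6 and Ssr1. Among all 4093 genes tested, 33% were called, 18.5% higher and 14.5% lower. The fold change was positive for 13 of the 14 members and for 48.0% of all genes, and its median was 0.22 on the log2 scale for members and −0.02 for all genes. CPM of the 2 groups did not overlap for 7 of the 14 members, all higher in PERK-cKO. Of all genes, 44.6% did not overlap, 23.4% higher and 21.3% lower. In bulk samples, fewer cells of a type and less RNA per cell cannot be told apart. The part of the macrophage, basophil, neutrophil, dendritic cell and B cell genes, which moved with genotype in the same libraries, in these differences was not tested.

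The same comparison was made after polyclonal stimulation. Of 15 members tested, 6 rose and 0 fell, namely Hyou1, Pdia4, Ssr1, Srpr, Rpn2 and Sec24d, whereas with libraries scaled to the summed counts of 8 T cell markers 1 rose (Sec24d) and 3 fell (Atf6, Uggt1 and Srp54a). Among all 3937 genes tested, 31.8% were called, 16% higher and 15.8% lower. The scaling shifted the median over all genes to −0.325 (log2) after polyclonal and to 0.125 after allogeneic stimulation, where 7 members then rose and 0 fell. Under it 4.24% of all genes were called higher and 37.8% lower after polyclonal stimulation, and 23.2% and 7.67% after allogeneic stimulation. The markers themselves differed with genotype and not in 1 direction: after polyclonal stimulation Thy1 was at 0.64 (adjusted p = 1.35e-05), Cd5 at −0.58 (6.4e-05), Lck at 0.26 (0.0207), Zap70 at 0.05 (0.749), Lat at −0.09 (0.468), Cd6 at 0.46 (0.392) and Cd8b1, the only CD8 marker read, at 1.63 (0.0045), with 4 to 17 counts in WT and 28 to 53 in PERK-cKO libraries. Thy1 held 44.6% of the marker counts in WT and 55.3% in PERK-cKO polyclonal libraries, and so weighs most in this scaling. After allogeneic stimulation Thy1 was at 0.05 (adjusted p = 0.722), Cd5 at −0.80 (1.1e-06) and Lck at −0.52 (8.59e-05). Lat was at −0.46 (0.000348) and Zap70 at −0.36 (0.00302). In that comparison the called markers were all lower in PERK-cKO libraries. Scaling to T cell markers moves all genes of a comparison nearly alike. Less the median of all genes, member values therefore change little by construction. That 72 of 72 kept their sign in this way is no test of whether calls hold under the scaling. The same is true of each value given below less that median. The scaling was not run for single entries or for the lists of other ER genes. CPM of the groups did not overlap for 7 of 15 members, all higher in PERK-cKO. Of all genes, 43.5% did not overlap, 23% higher and 20.5% lower. The difference of the genotype effect between stimulations (allogeneic minus polyclonal) was tested in all 12 libraries for 15 members, of which 1 was called positive (Atf6) and 1 negative (Hyou1). Among all 4402 genes tested, 33.9% were called, 16.7% positive and 17.2% negative. With libraries scaled to T cell markers, which moved the median to 0.504, 7 members were positive and 0 negative, as were 36.6% and 4.27% of all genes. In the polyclonal comparison without WT polyclonal replicate 1, 3 members were called, namely Hyou1, Pdia4 and Srpr, of 15 tested, where 24.1% of 4071 genes were called. The part of Cd8b1 and of the basophil, mast cell and NK cell markers, which were higher in PERK-cKO in the same polyclonal libraries, in these differences was not tested.

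**Figure D2:**
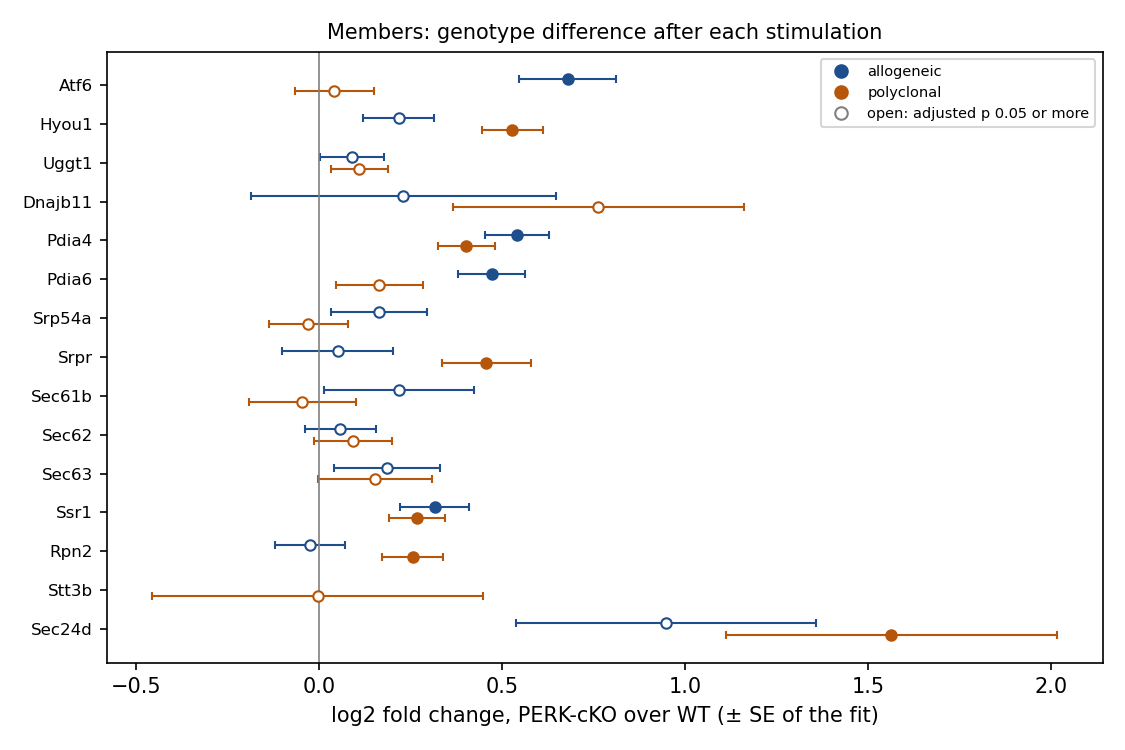
Log2 fold change of PERK-cKO over WT for the 15 members tested, with the standard error (SE) of the fit as bars; filled points have an adjusted p under 0.05. Pdia4 and Ssr1 are filled after both stimulations, Atf6 and Pdia6 after allogeneic and Hyou1, Srpr, Rpn2 and Sec24d after polyclonal stimulation; scaling to T cell markers turns the polyclonal values of Ssr1 (−0.06), Rpn2 (−0.07), Pdia6 (−0.17), Sec63 (−0.18), Uggt1 (−0.22), Sec62 (−0.24) and Atf6 (−0.28), and the allogeneic value of Rpn2 (0.12). Less the median of all genes under that scaling, these 7 polyclonal values lie at 0.04 to 0.264 and the allogeneic value of Rpn2 at −0.00095.

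Atf6 encodes the membrane-bound sensor that is cut in the Golgi to release a transcription factor for chaperone genes. Its level in WT libraries after allogeneic stimulation was 70.9, 69.9 and 77.0 CPM, against 112, 125 and 112 CPM in PERK-cKO libraries. After polyclonal stimulation it was 103, 115 and 104 CPM in WT and 112, 104 and 119 CPM in PERK-cKO libraries. The 3 WT allogeneic libraries, which alone held Y-linked reads, were thus the lowest of all 12, and the genotypes overlapped after polyclonal stimulation. PERK-cKO differed from WT by 0.68 ± 0.13 on the log2 scale (SE, adjusted p = 0.000261) after allogeneic and 0.04 ± 0.11 (adjusted p = 0.814) after polyclonal stimulation. The difference between these values was itself called (0.62 ± 0.16, adjusted p = 0.00368), as it was under all 9 alternatives and with each of the 12 libraries left out (0.58 to 0.71). With libraries scaled to T cell markers it was 0.61 less the median of all genes. Of the counts for Atf6, 74.5% came from a single entry, over its last exon, which gave 0.68 after allogeneic and 0.03 after polyclonal stimulation. The second entry in size, over part of the same exon, gave 0.63 and 0.03, with an adjusted p of 0.103 after allogeneic stimulation. These 2 entries overlie the same stretch of exon in part, and the table was counted without strand, so they are not independent measures.

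Hyou1 encodes a large relative of HSP70 that assists BiP in the ER lumen. It was at 300, 305 and 268 CPM in WT and 327, 325 and 361 CPM in PERK-cKO libraries after allogeneic stimulation. After polyclonal stimulation it was at 285, 291 and 279 CPM in WT and 395, 418 and 432 CPM in PERK-cKO libraries. The genotypes did not overlap after either stimulation. The log2 fold change was 0.53 ± 0.08 (adjusted p = 0.000199) after polyclonal stimulation, and 0.20 (adjusted p = 0.0659), or 0.53 less the median of all genes, with libraries scaled to T cell markers. It was 0.22 ± 0.10 after allogeneic stimulation and missed the threshold (adjusted p = 0.0919). The allogeneic value was called in 2 of 10 alternatives, at 0.37 (adjusted p = 0.00964), or 0.24 less the median of all genes, with libraries scaled to T cell markers and at 0.26 (adjusted p = 0.0409) with at least 10 counts in every library. The difference between stimulations was −0.33 ± 0.12 (adjusted p = 0.0444), but it was called in 0 of 9 alternatives and turned to 0.17, or −0.34 less the median of all genes, with libraries scaled to T cell markers, and leaving out any of 10 of the 12 libraries also lost the call, with adjusted p up to 0.162 without PERK-cKO polyclonal replicate 3. Hyou1 was read from 3 entries, which gave 0.59, 0.44 and 0.52 after polyclonal stimulation and 0.24, 0.22 and 0.31 after allogeneic stimulation. The first and the last overlie the same 1656 bases, so they are not independent. The second, with 40.3% of the counts, lies wholly within a single coding exon of Hyou1, exon 17 of 26. Its sequence is shown because it is the purest stretch of the gene that was measured (GRCm38, GENCODE M21 transcript, chr9:44387713-44387829, plus strand).
Hyou1 exon 17: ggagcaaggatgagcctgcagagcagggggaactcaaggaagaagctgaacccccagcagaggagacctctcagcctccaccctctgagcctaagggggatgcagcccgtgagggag

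Uggt1, the enzyme that checks folding by putting a glucose back on misfolded glycoproteins, also had many counts. It was at 633, 619 and 576 CPM in WT and 672, 644 and 623 CPM in PERK-cKO libraries after allogeneic stimulation, and at 537, 539 and 510 against 566, 585 and 579 CPM after polyclonal stimulation. Its log2 fold change was 0.09 ± 0.09 (adjusted p = 0.479) and 0.11 ± 0.08 (adjusted p = 0.305), the latter −0.22 (adjusted p = 0.0318) with libraries scaled to T cell markers, or 0.11 less the median of all genes. The allogeneic value was called in 2 of 10 alternatives: that scaling (0.24, adjusted p = 0.0434, or 0.11 less the median) and 50% of an entry on the exons. The difference between stimulations was −0.04 ± 0.11 (adjusted p = 0.828). Under that scaling this difference was 0.45 (adjusted p = 0.002), or −0.05 less the median. The groups overlapped after allogeneic stimulation and did not after polyclonal stimulation. Its 3 entries gave 0.22, −0.03 and −0.38 after allogeneic stimulation, none of them called, and the differences between them were not tested. The last 2 have 848 of 12853 and 425 of 4340 bases on Uggt1 exons, so these values need not be those of Uggt1. Dnajb11, a J-domain partner of BiP, had only 10 to 33 counts per library, with log2 fold changes of 0.23 ± 0.42 (adjusted p = 0.719) and 0.76 ± 0.40 (adjusted p = 0.163). Sil1, which exchanges the nucleotide of BiP, had 0 to 6 counts per library and was not tested.

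**Figure D3:**
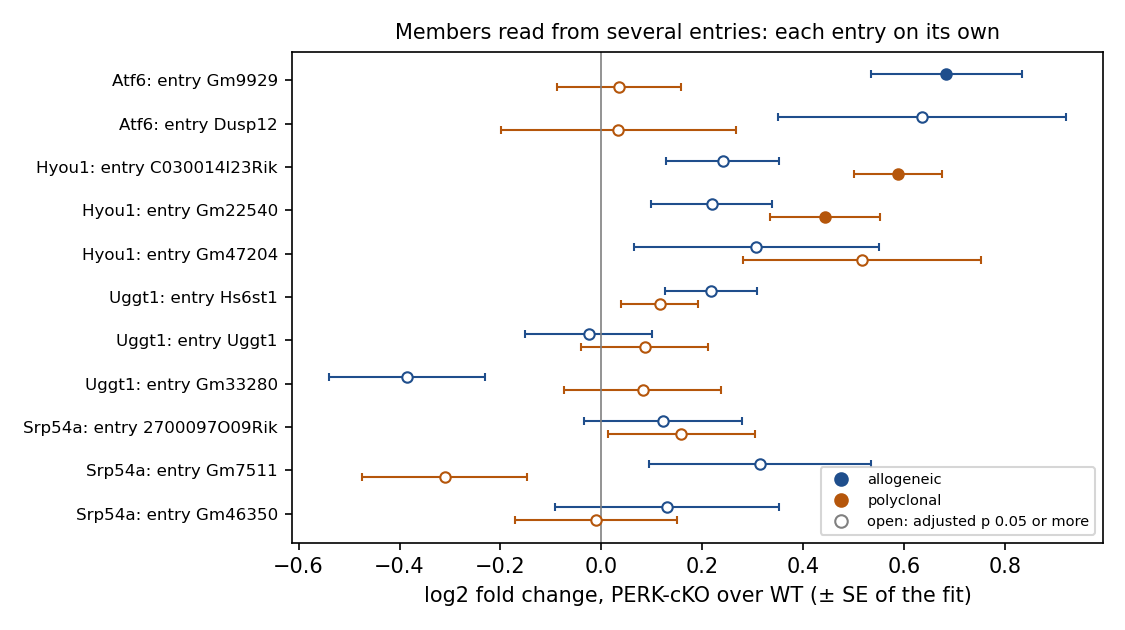
Log2 fold change of PERK-cKO over WT (± SE) for each entry of the members that were read from several entries, from a fit over all entries. The 3 entries of Hyou1 lie at 0.44 to 0.59 after polyclonal stimulation, whereas those of Uggt1 lie at −0.38 to 0.22 after allogeneic stimulation.

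Pdia4, a disulfide isomerase, was the member with the most counts (28226 in all) and rose after both stimulations. All these counts came from 1 entry, with 1298 of 5421 bases on Pdia4 exons. Pdia4 was therefore not tested where 50% of an entry had to lie on the exons. Pdia4 was at 1088, 1164 and 1117 CPM in WT and 1626, 1648 and 1610 CPM in PERK-cKO libraries after allogeneic stimulation. With polyclonal stimulation it was at 923, 955 and 880 CPM in WT and 1299, 1146 and 1239 CPM in PERK-cKO libraries. The genotypes were apart in both cases. The fitted difference was 0.54 ± 0.09 on the log2 scale (adjusted p = 2.51e-05) after allogeneic and 0.40 ± 0.08 (adjusted p = 0.00115) after polyclonal stimulation. The second value fell to 0.08 (adjusted p = 0.42) with libraries scaled to T cell markers, which is 0.40 less the median of all genes. With each library left out in turn, both calls were kept (adjusted p up to 0.00038 and 0.0104). The difference between the stimulations was 0.12 ± 0.11 (adjusted p = 0.419).

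Pdia6, a second disulfide isomerase, which also binds the IRE1 sensor, was at 595, 614 and 706 CPM in WT and 882, 932 and 834 CPM in PERK-cKO libraries after allogeneic stimulation. After polyclonal stimulation it was at 548, 596 and 735 CPM in WT and 841, 650 and 636 CPM in PERK-cKO libraries. PERK-cKO libraries were higher without overlap in the first case only, and in the second 1 WT library (735 CPM) was above 2 PERK-cKO libraries. Pdia6 was higher by 0.47 ± 0.09 on the log2 scale (adjusted p = 0.000273) after allogeneic and 0.16 ± 0.12 (adjusted p = 0.322) after polyclonal stimulation, the latter −0.17 with libraries scaled to T cell markers, or 0.16 less the median of all genes. The polyclonal value ran from 0.0053 without PERK-cKO polyclonal replicate 1 to 0.29 without WT polyclonal replicate 3, where it was called (adjusted p = 0.0459). The difference between the stimulations was 0.29 ± 0.16 (adjusted p = 0.174), and 0.42 (adjusted p = 0.0339) without PERK-cKO polyclonal replicate 1. All counts of Pdia6 came from 1 entry that covers 106 bases of its last exon, of which 66 are coding. They are shown because the whole result for Pdia6 rests on an entry with this stretch (GRCm38, GENCODE M21 transcript, chr12:17283938-17284003, plus strand).
Pdia6 exon 13, coding part: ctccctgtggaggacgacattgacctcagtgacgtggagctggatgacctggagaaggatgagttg

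The promoters of these genes were searched for the elements bound by ATF6 and XBP1. The sequences are from RefSeq (GRCm38.p6), cover the 250 bases before the start of the gene and were found for 40 of the 48 symbols, but not for Atf6 and Hyou1. The ER stress response element (CCAAT, then 9 bases, then CCACG, on either strand) was found in 7 of these 40 genes, namely Hspa5, Hsp90b1, Calr, Canx, Dnajc3, Creld2 and Pdia6, against 0.13% of 27025 genes with such a sequence. Of the 13 genes that were read and had a promoter sequence, Pdia6 alone held it. The ER stress response element II (ATTGG, 1 base, CCACG) was found in 0 of the 40 and in 0.037% of all genes. The UPR element TGACGTGG was found in Sec24d alone of the 40 and in 0.603% of all genes. Below, the matched bases are in capitals. Pdia6 and Pdia4, both higher in PERK-cKO after allogeneic stimulation, are shown with and without a match, Sec24d for its UPR element, and Hspa5 as the gene for which the element is best known. The letters were not tested for binding.
Pdia6 (chr12:17266339-17266588, plus strand): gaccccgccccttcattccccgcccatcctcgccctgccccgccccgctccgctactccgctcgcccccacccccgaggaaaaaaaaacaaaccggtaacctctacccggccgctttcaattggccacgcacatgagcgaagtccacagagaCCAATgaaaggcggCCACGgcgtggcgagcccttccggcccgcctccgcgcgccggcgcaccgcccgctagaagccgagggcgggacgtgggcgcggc
Pdia4 (chr6:47813513-47813762, minus strand): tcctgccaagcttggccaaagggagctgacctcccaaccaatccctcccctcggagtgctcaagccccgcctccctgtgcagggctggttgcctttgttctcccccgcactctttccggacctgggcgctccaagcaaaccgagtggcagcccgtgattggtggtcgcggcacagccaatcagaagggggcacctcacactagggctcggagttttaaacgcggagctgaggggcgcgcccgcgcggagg
Sec24d (chr3:123267246-123267495, plus strand): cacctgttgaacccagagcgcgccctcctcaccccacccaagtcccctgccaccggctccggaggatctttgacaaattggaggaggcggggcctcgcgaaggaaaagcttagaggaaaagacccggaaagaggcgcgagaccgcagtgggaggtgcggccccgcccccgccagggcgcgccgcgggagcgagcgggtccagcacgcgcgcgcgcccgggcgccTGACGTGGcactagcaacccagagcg
Hspa5 (chr2:34771840-34772089, plus strand): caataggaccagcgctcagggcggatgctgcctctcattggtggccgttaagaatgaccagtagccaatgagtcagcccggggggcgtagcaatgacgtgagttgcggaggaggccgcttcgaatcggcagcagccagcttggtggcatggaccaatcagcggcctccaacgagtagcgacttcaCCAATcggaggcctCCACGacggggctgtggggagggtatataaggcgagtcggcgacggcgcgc

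Of the import genes, Ssr1 encodes a subunit of the translocon-associated protein complex at the SEC61 channel. It was at 713, 840 and 807 CPM in WT and 955, 1067 and 906 CPM in PERK-cKO libraries after allogeneic stimulation. Polyclonal libraries were at 684, 651 and 653 CPM in WT and at 845, 772 and 799 CPM in PERK-cKO libraries. PERK-cKO libraries were above WT libraries in both cases, without overlap. In the fit this was 0.32 ± 0.09 on the log2 scale (adjusted p = 0.0117) after allogeneic and 0.27 ± 0.08 (adjusted p = 0.0144) after polyclonal stimulation, the latter −0.06 with libraries scaled to T cell markers, or 0.26 less the median of all genes. The allogeneic call was lost without WT allogeneic replicate 1 (adjusted p = 0.0838). The polyclonal call was lost without WT polyclonal replicate 1 (adjusted p = 0.0524) or PERK-cKO polyclonal replicate 1 (adjusted p = 0.0654). The genotype effect on Ssr1 differed between the stimulations by 0.03 ± 0.12 (adjusted p = 0.867).

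Srpr encodes the alpha subunit of the receptor of the signal recognition particle. It was read from 1 entry, which has 324 of 786 bases on Srpr exons. Srpr was at 65.2, 72.9 and 59.1 CPM in WT and 66.9, 62.8 and 74.2 CPM in PERK-cKO libraries after allogeneic stimulation. After polyclonal stimulation it was at 71.4, 70.2 and 63.3 CPM in WT and 100, 86.3 and 96.9 CPM in PERK-cKO libraries. The 3 PERK-cKO polyclonal libraries were thus above the other 9. The log2 fold change was 0.46 ± 0.12 (adjusted p = 0.0092) after polyclonal stimulation, or 0.13 (adjusted p = 0.406) and 0.45 less the median of all genes with libraries scaled to T cell markers. It was 0.05 ± 0.15 (adjusted p = 0.836) after allogeneic stimulation, and the difference between the stimulations was −0.42 ± 0.18 (adjusted p = 0.0763).

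The other import genes did not pass the test in either comparison. Srp54a, the subunit of the signal recognition particle that binds signal peptides, had log2 fold changes of 0.16 ± 0.13 and −0.03 ± 0.11, and its reads are uncertain because Srp54b and Srp54c are near-identical copies. Sec62 and Sec63, partners of the channel for proteins imported after their synthesis, lay between 0.06 and 0.19 in both comparisons, and at −0.24 and −0.18 after polyclonal stimulation with libraries scaled to T cell markers, or 0.087 and 0.148 less the median of all genes. Of the 7725 bases of the Sec63 entry, 507 lay on Sec63 exons. Sec61b, a subunit of the channel itself, had the lowest value after polyclonal stimulation (−0.05 ± 0.15). It is the 1 member whose single entry lies wholly on its own exons under its own name, and it spread widely after allogeneic stimulation: 108, 168 and 121 CPM in WT and 95.1, 222 and 144 CPM in PERK-cKO libraries. Its value of 0.22 ± 0.21 turned to −0.14 without PERK-cKO allogeneic replicate 2, and without PERK-cKO allogeneic replicate 1 it was 0.48 (adjusted p = 0.0311).

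Rpn2, a subunit of the oligosaccharyltransferase that puts sugar chains on new proteins, was at 360, 357 and 313 CPM in WT and 347, 320 and 342 CPM in PERK-cKO libraries after allogeneic stimulation. Under polyclonal stimulation Rpn2 was at 329, 345 and 318 CPM in WT and 383, 407 and 408 CPM in PERK-cKO libraries. It was thus high in the 3 PERK-cKO polyclonal libraries and overlapped between genotypes after allogeneic stimulation. Its log2 difference was 0.26 ± 0.08 (adjusted p = 0.0278) after polyclonal stimulation, −0.07 with libraries scaled to T cell markers, or 0.255 less the median of all genes. This call was lost without WT polyclonal replicate 1 (adjusted p = 0.123), WT polyclonal replicate 3 (0.0769), PERK-cKO polyclonal replicate 2 (0.0841) or PERK-cKO polyclonal replicate 3 (0.0909), with DESeq2 (0.0662), and with library size only (0.0597). After allogeneic stimulation the value was −0.03 ± 0.10 (adjusted p = 0.872), the lowest of the 14 members, and the difference between the stimulations was −0.30 ± 0.12 (adjusted p = 0.0631). Only 163 of the 4371 bases of its entry lay on Rpn2 exons. Stt3b, a catalytic subunit of the same enzyme, had 4 to 16 counts per library, with −0.005 ± 0.45 after polyclonal stimulation. Its difference between stimulations, −1.10 ± 0.76 (adjusted p = 0.288), was the lowest among the members.

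Sec24d, a coat protein of the vesicles that carry cargo out of the ER, had the largest fold changes and few counts. It had 7, 11 and 9 counts in WT and 29, 20 and 12 in PERK-cKO libraries after allogeneic stimulation, and 5, 9 and 3 against 23, 18 and 11 after polyclonal stimulation. In CPM these were 4.39, 6.46 and 4.75 against 12.4, 10.0 and 7.30, and 2.63, 4.48 and 1.56 against 10.1, 10.7 and 5.64. PERK-cKO libraries were higher without overlap after both stimulations. The log2 fold change was 0.95 ± 0.41 (adjusted p = 0.0823) after allogeneic and 1.56 ± 0.45 (adjusted p = 0.0153) after polyclonal stimulation. The polyclonal call was lost without WT polyclonal replicate 1, WT polyclonal replicate 3, PERK-cKO polyclonal replicate 1 or PERK-cKO polyclonal replicate 2 (adjusted p = 0.0701, 0.0687, 0.066 and 0.0612) and with DESeq2 (0.0696). Between stimulations the genotype effect on Sec24d differed by −0.63 ± 0.63 (adjusted p = 0.478). The entry covers 69 bases of Sec24d, all in coding exon 3, and 2602 bases in all, so how many of its counts came from Sec24d is not known. The 69 bases are shown as the stretch that ties the entry to the gene (GRCm38, GENCODE M21 transcript, chr3:123279145-123279213, plus strand).
Sec24d exon 3: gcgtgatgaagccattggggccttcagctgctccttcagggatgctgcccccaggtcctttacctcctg

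**Figure D4:**
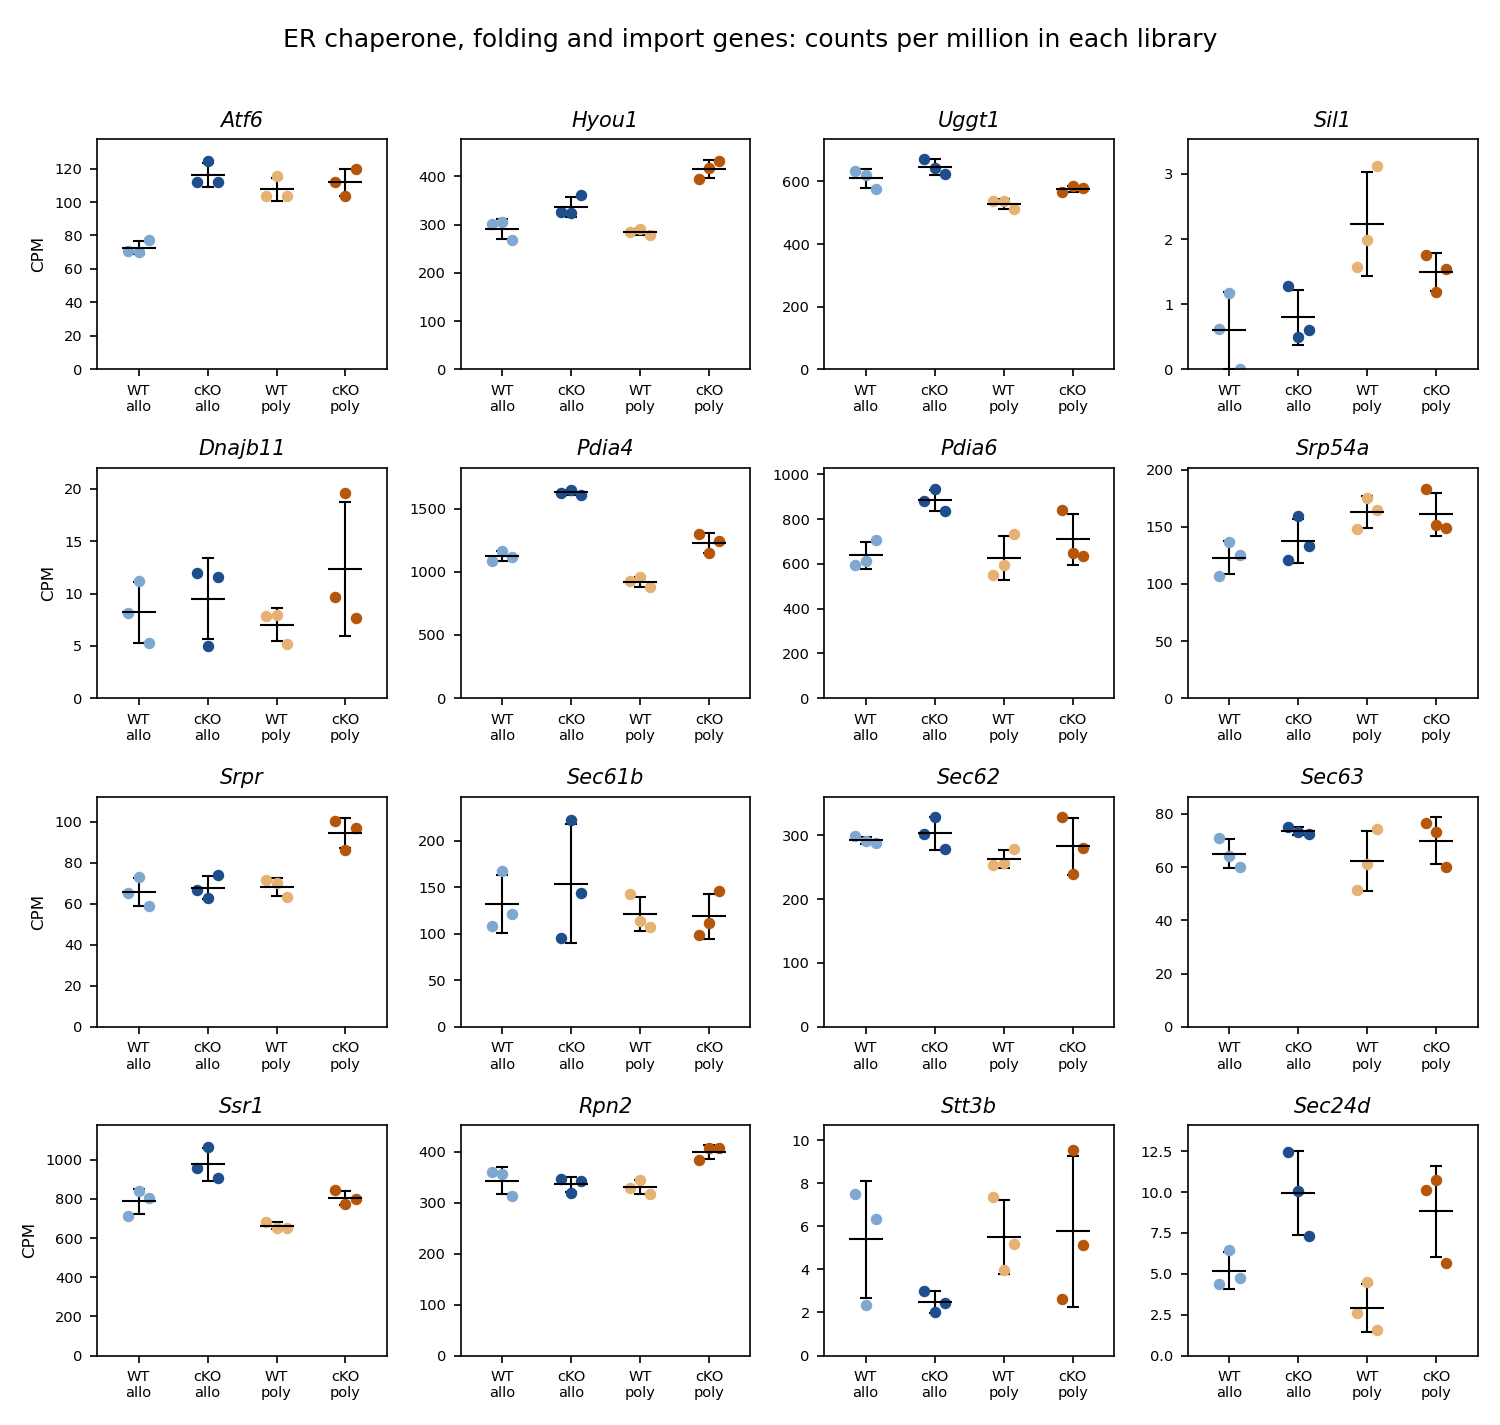
CPM of the 16 members in each of the 12 libraries (points), with the mean and SD of the 3 libraries of a group as a line and bars, on linear axes that start at 0. Atf6 is lowest in the 3 WT allogeneic libraries (69.9 to 77.0 CPM), and Hyou1, Srpr and Rpn2 are highest in the 3 PERK-cKO polyclonal libraries.

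The effect of the stimulus was then compared within each genotype, with the same libraries as above. In WT libraries, 2 members were higher (Pdia4, 0.26 ± 0.08, adjusted p = 0.0127, and Ssr1, 0.22 ± 0.08, adjusted p = 0.0485) and 2 lower (Atf6, −0.60 ± 0.11, adjusted p = 0.000687, and Srp54a, −0.44 ± 0.11, adjusted p = 0.00647) after allogeneic than after polyclonal stimulation, of 14 tested. Among all 3985 genes tested, 48.6% were called, 24.5% higher and 24.1% lower. CPM did not overlap for 6 members, 4 higher and 2 lower, and for 56% of all genes, 29.6% higher and 26.3% lower. With libraries scaled to T cell markers, the median of all genes moved to −0.51, 12 members fell and 0 rose (54.8% and 8.81% of all genes), and 8 members turned, among which Pdia4 and Ssr1 went to −0.24 and −0.28, which is 0.27 and 0.23 less that median. Y-linked reads, present in WT allogeneic and absent from WT polyclonal libraries, separate the same groups. So do markers of other cells: in WT, basophil and mast cell markers were at 124 to 137 CPM after allogeneic and 1.04 to 2.49 after polyclonal stimulation, macrophage markers at 244 to 280 against 113 to 125, and B cell markers at 51.4 to 68.6 against 3.68 to 4.98. Their part in the differences was not tested. Without WT polyclonal replicate 1, Pdia4 and Ssr1 were no longer called (adjusted p = 0.0537 and 0.0854). The call of Ssr1 was also lost without WT allogeneic replicate 2 (0.155), WT allogeneic replicate 3 (0.117), WT polyclonal replicate 2 (0.139) or WT polyclonal replicate 3 (0.0942). Among the 10 alternatives that kept every library, Ssr1 was not called in 6, among them DESeq2 (0.0628) and library size only (0.202), and Pdia4 was not called with library size only (0.123).

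In PERK-cKO libraries, 3 of 14 members were higher after allogeneic stimulation, namely Pdia4 (0.41 ± 0.08, adjusted p = 0.000362), Pdia6 (0.31 ± 0.10, adjusted p = 0.0153) and Ssr1 (0.28 ± 0.09, adjusted p = 0.0122). A further 3 were lower, namely Hyou1 (−0.30 ± 0.09, adjusted p = 0.00893), Srpr (−0.48 ± 0.13, adjusted p = 0.00498) and Rpn2 (−0.25 ± 0.09, adjusted p = 0.0231). Among all 4159 genes tested, 51.4% were called, 27.7% higher and 23.8% lower. CPM did not overlap for 3 members that were higher, Pdia4, Ssr1 and Uggt1 (the last at 0.16 ± 0.08, adjusted p = 0.103), and 3 that were lower, Hyou1, Srpr and Rpn2, and for 58.4% of all genes, 30.5% higher and 27.9% lower. The call of Pdia6 was lost in 2 of 6 fits that left out a library (adjusted p = 0.102 without PERK-cKO polyclonal replicate 3). That of Hyou1 was lost without PERK-cKO polyclonal replicate 3 (0.0524). Ssr1 was no longer called without PERK-cKO allogeneic replicate 2 (0.0602), PERK-cKO polyclonal replicate 2 (0.0694) or PERK-cKO polyclonal replicate 3 (0.0507). Rpn2 was no longer called without PERK-cKO allogeneic replicate 2 (0.0833) or 3 (0.0638), or without PERK-cKO polyclonal replicate 2 (0.0731) or 3 (0.0935), and neither with DESeq2 (0.0675) nor with at least 10 counts in every library (0.0551). Atf6 was at 0.05 ± 0.12 (adjusted p = 0.731) in these libraries. Markers of other cells separated these groups too, and their part in the differences was not tested: macrophage markers were at 1748 to 1966 CPM after allogeneic and 107 to 145 after polyclonal stimulation, basophil and mast cell markers at 2727 to 2886 against 16.7 to 24.4, neutrophil markers at 159 to 163 against 0 to 1.03, dendritic cell markers at 45.4 to 61.4 against 5.64 to 7.15, and B cell markers at 140 to 165 against 4.17 to 10.99.

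For the 17 listed genes that were covered only by entries over several genes, the entries were tested as they stand, in a fit over all entries. After allogeneic stimulation 5 of these 17 entries rose and 1 fell, where 16.7% of 9467 entries were higher and 12.2% lower. After polyclonal stimulation 8 rose and 0 fell, against 15% and 14.5% of 9328 entries. Without WT polyclonal replicate 1, 4 of the 17 rose and 0 fell, over Fkbp2, Hspa5, Manf and Sdf2l1, against 10% and 11.7% of 9687 entries, and the entries over Atf6b, Ern1, Ppib and Stt3a were no longer called. The entry over Hspa5, which encodes BiP, the main HSP70 of the ER, also covers 246 bases of Rabepk. It had 3221 to 4234 counts in WT and 4919 to 7400 in PERK-cKO libraries after allogeneic stimulation (log2 fold change 0.55 ± 0.09, adjusted p = 1.49e-05), and 4149 to 4675 against 4618 to 7829 after polyclonal stimulation (0.40 ± 0.09, adjusted p = 0.00314). The polyclonal value of the Hspa5 entry was 0.35 (adjusted p = 0.0295) without WT polyclonal replicate 1, and its difference between stimulations was 0.17 ± 0.12 (adjusted p = 0.325). The entry over Ern1, the gene of IRE1, covers 708 bases of it and 35 of Tex2, and had 95 to 123 counts in WT and 210 to 374 in PERK-cKO libraries after allogeneic stimulation (1.13 ± 0.14, adjusted p = 8.01e-07). After polyclonal stimulation the Ern1 entry had 86 to 133 against 134 to 195 counts (0.57 ± 0.15, adjusted p = 0.00895), and its difference between stimulations was 0.58 ± 0.21 (adjusted p = 0.0404). Without WT polyclonal replicate 1 the polyclonal value of the Ern1 entry was 0.43 and missed the threshold (adjusted p = 0.0649). The call of its difference between stimulations was lost in 8 of 12 fits that left out a library. The entry over Xbp1, the transcription factor that IRE1 activates by splicing, also covers Ankrd36 and Ccdc117. It fell after allogeneic stimulation (−0.33 ± 0.09, adjusted p = 0.00416), was at 0.10 ± 0.08 (adjusted p = 0.361) after polyclonal stimulation, and its difference between them was −0.41 ± 0.11 (adjusted p = 0.00717). Because these entries hold counts of several genes, none of these values can be given to 1 gene. The counts are given as deposited, not scaled to depth.

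Canx, Hsp90b1 and Ddost had entries that rose after allogeneic stimulation (0.33, 0.35 and 0.98, adjusted p = 0.00447, 0.00576 and 2.15e-05), while those over P4hb, Ppib and Spcs1 lay between −0.07 and 0.08. The Hsp90b1 call was lost without WT allogeneic replicate 1 (adjusted p = 0.0563). Only 87 of the 7805 bases of the Ddost entry lay on Ddost exons, against 365 on Kif17 and 194 on Pink1. After polyclonal stimulation, the entries over Fkbp2, Sdf2l1, Manf, Ppib, Stt3a and Atf6b rose by 0.25 to 0.46 on the log2 scale, in addition to those over Hspa5 and Ern1. Of 6 fits that left out a library, the call was lost in 5 for Stt3a, 4 for Atf6b and 3 for Ppib. The entry over Manf, which covers 61 bases of it among 6 genes, was at −0.24 (adjusted p = 0.0868) after allogeneic stimulation. The difference between stimulations was called positive for 3 and negative for 2 of the 17 entries, against 15.9% and 13.1% of 10454 entries. Beside Ern1 and Xbp1 these were the entries over Ddost (1.09, adjusted p = 0.000836), Manf (−0.57, 0.00243) and Canx (0.34, 0.0275). The Canx call was lost in 9 of 12 fits that left out a library.

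**Figure D5:**
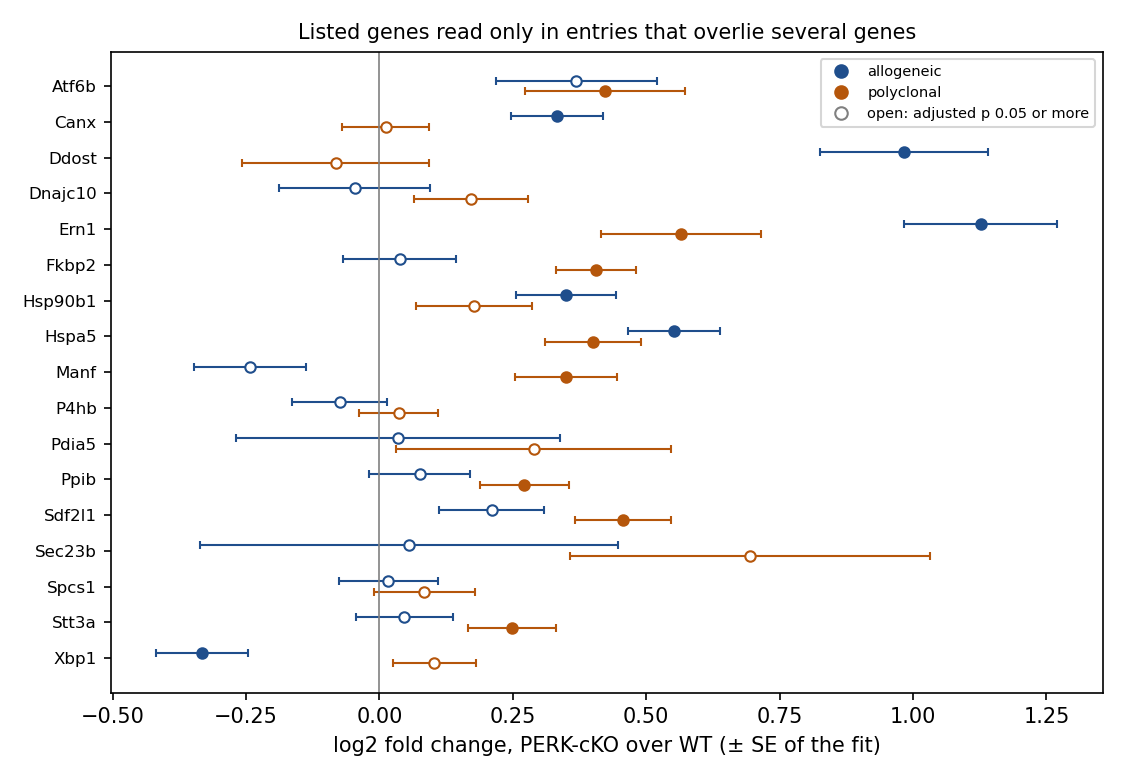
Log2 fold change of PERK-cKO over WT (± SE) for the entries over the 17 listed genes that share every entry with other genes; filled points have an adjusted p under 0.05. After allogeneic stimulation the entries over Ern1 (1.13) and Ddost (0.98) are highest and that over Xbp1 (−0.33) is lowest.

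The 4 lists of other ER genes (other folding and redox factors, import and membrane insertion, N-glycosylation, and ER exit and UPR processing) gave 25 of 106 genes with counts of their own. After allogeneic stimulation 4 of 24 rose and 1 fell, where 18.5% and 14.5% of all genes did. After polyclonal stimulation 3 rose and 2 fell, where 16% and 15.8% of all genes did. Their medians were 0.0081 and 0.0675 on the log2 scale, against −0.02 and 0.0013 for all genes. Fkbp9, a prolyl isomerase, had 4 to 14 counts in WT and 40 to 55 in PERK-cKO libraries after allogeneic stimulation (2.20 ± 0.38, adjusted p = 6.27e-05). Nomo1, a partner of the translocon, rose after both stimulations (0.59, adjusted p = 0.000804, and 0.45, adjusted p = 0.0101), the second call being lost in 2 of 6 fits that left out a library. Of the glycosylation genes, the mannosyltransferase Alg2 rose after allogeneic stimulation (0.40, adjusted p = 0.00481), and Dpagt1, which starts the lipid-linked sugar chain, after polyclonal stimulation (0.63, adjusted p = 0.000955). Mcfd2, a cargo receptor subunit, rose after allogeneic stimulation (0.96, adjusted p = 6.36e-05). Srp68, a subunit of the signal recognition particle, fell after both (−1.15, adjusted p = 6.25e-06, and −0.41, adjusted p = 0.027), with the second call lost in 4 of 6 fits that left out a library. Tmx3, a membrane-bound disulfide isomerase, fell after polyclonal stimulation (−0.40, adjusted p = 0.0299), a call lost in 3 of 6 such fits. Alg8, a glucosyltransferase of the lipid-linked sugar chain, rose after polyclonal stimulation (0.38, adjusted p = 0.0068).

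For the difference of the genotype effects between the stimulations, 2 of these 25 genes were positive and 5 negative, where 16.7% and 17.2% of all genes were. Fkbp9 was positive (2.14 ± 0.68, adjusted p = 0.0174, lost in 2 of 12 fits that left out a library), with 3 to 55 counts over all libraries, as was Mcfd2 (1.004 ± 0.25, adjusted p = 0.00313). Alg8 (−0.77 ± 0.19, adjusted p = 0.00259), Srp68 (−0.76 ± 0.21, adjusted p = 0.00784) and Dpagt1 (−0.66 ± 0.19, adjusted p = 0.00919) were negative with any library left out. Rtcb, the ligase of the IRE1 branch that joins Xbp1 exons (−0.69 ± 0.26, adjusted p = 0.0406), and Ganab, a glucosidase subunit (−0.31 ± 0.11, adjusted p = 0.0353), were negative as well, each call being lost in 9 of 12 such fits.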

How the data were processed

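RNA from stimulated T cells was sequenced by the authors, who deposited raw counts per gene symbol, made with featureCounts 2.0.1 on read pairs over exons of GENCODE M27 (GRCm39), without strand. The labels name mm10 (GRCm38) as the build, and the aligner is not given in the sources used here. Positions were therefore laid as printed on GRCm38 exons (GENCODE M21), and an entry was given to a gene if 50 bp or more of it lay on exons of that gene and of no other, small RNAs not counted, and entries were summed per gene. Genes are named by this placement and not by the deposited symbol. Of 53762 entries, 13388 were placed. The 0 unmapped columns left nothing out.

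Placed counts were filtered by filterByExpr, scaled by TMM and tested with edgeR 4.0.16 (quasi-likelihood, R 4.3.3), with Benjamini-Hochberg adjustment over all genes tested and a threshold of 0.05. Each comparison of 2 groups used its 6 libraries, and the interaction used 12. CPM are placed counts over TMM-scaled totals. A count of 3 is worth 1.29 to 1.91 CPM before TMM scaling, covering counting error only. Scripts were tested on simulated data. The value of 1 T cell marker is not reported here. The entries were also fitted on their own, with each library left out in turn, which was chosen after seeing the data. Replicate numbers did not pair the samples. Sequences and figures were made with Python 3.11.15.

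All members with at least 10 counts are accounted for. Full statistics are given for members called in a genotype comparison or the interaction, and for Atf6, Xbp1, Ern1 and Hspa5 where measured, with the largest and the smallest of the others. The largest called rise and fall of each list of other ER genes are named. Other import genes, Alg8 and Dpagt1 in further comparisons, shared entries, Alg2, Mcfd2 and Uggt1 entries were named beside them after their values were seen. The members and lists were chosen with earlier results of these data known. Alternatives were DESeq2 1.42.0, RLE factors, plain library sizes, T cell marker scaling, other filters and placements, all 12 libraries in one fit, a replicate block and each library left out.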

Additional observations from a re-analysis of the deposited data

Results flagged for a closer look

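The genotype difference of 2 members differed between the stimulations by the interaction test. For Atf6 the difference was 0.62 on the log2 scale (adjusted p = 0.00368, edgeR), with a higher level in PERK-cKO libraries after allogeneic and no call after polyclonal stimulation. For Hyou1 it was −0.33 (adjusted p = 0.0444), a call that was lost under all 9 alternatives.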

How the results depend on the processing

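Of 72 fitted member values, the 36 that were called, or belong to a member called in a genotype comparison, or were lowest, were followed under each alternative, and of 604 repeats 513 kept direction and call, 60 were no longer called, 10 were newly called and 21 turned. Requiring 50% of an entry to lie on the exons lowered the genes called to 400 (allogeneic), 339 (polyclonal), 396 (interaction), 567 (stimulus, WT) and 612 (stimulus, PERK-cKO), with fewer genes tested, and the members called to 3, 2, 1, 2 and 3, of only 6 that could be tested. Scaling to T cell markers gave 7 members (allogeneic), 7 (interaction) and 12 (stimulus, WT), and library size only gave 2 (stimulus, WT). In the interaction, 1 member remained under DESeq2, RLE factors, library size only, no filter, a floor of 10 counts a library, both stricter placements and the replicate block. The replicate numbers did not pair the samples (correlations −0.101 to 0.0884, with 0 of 12 pairs over 0.1), and the replicate block gave 1345, 1199 and 1442 genes in place of 1352, 1250 and 1491.

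With 1 library left out, genes called were 1140 to 1288 (allogeneic), 983 to 1160 (polyclonal), 1335 to 1426 (interaction), 1714 to 1854 (stimulus, WT) and 1980 to 2070 (stimulus, PERK-cKO), and members called were 3 to 5, 3 to 6, 1 to 4, 2 to 4 and 3 to 7. The lowest counts came without WT polyclonal replicate 1 (polyclonal 3, stimulus WT 2), and 3 without PERK-cKO polyclonal replicate 2 or 3 (stimulus, PERK-cKO). The 4 in the interaction came without WT allogeneic replicate 3.

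Over all 72 values, scaling to T cell markers turned 21 (7 polyclonal, 8 in the stimulus comparison in WT, 5 in the interaction and 1 allogeneic), 5 of which were called before it and 11 under it. Taken less the median of all genes, 21 of these 21 had the same sign before and under it, which follows by construction and is no test. Each of the other alternatives turned 1 to 4, and leaving out a library turned 51 of 522, none of them called. Among the 36, scaling to T cell markers gave Rpn2 0.12 (allogeneic), Atf6 −0.28, Pdia6 −0.17, Ssr1 −0.0606 and Rpn2 −0.0696 (polyclonal; Uggt1 −0.22, Sec62 −0.24 and Sec63 −0.18 also turned), Hyou1 0.17, Srpr 0.0691 and Rpn2 0.19 (interaction), and Pdia4 −0.24 and Ssr1 −0.28 (stimulus, WT). Rpn2 (allogeneic) was 0.0095 with library size only and 0.0199 with at least 10 counts, and Sec61b (polyclonal) was 0.0224 with library size only. With a library left out, Srpr (allogeneic) ran from −0.0261 to 0.125, Rpn2 (allogeneic) from −0.0904 to 0.0319, Atf6 (polyclonal) from −0.0143 to 0.0941, and Sec61b (polyclonal) from −0.222 to 0.0623. The cause was not tested.

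Members with under 40 counts per library (Sil1, Stt3b, Sec24d and Dnajb11) carry wide errors, and 32 of 48 listed symbols have no value of their own.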
